A study of Mus musculus with 20 samples.

Results

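The cytoskeletal genes described here code for tubulins, stathmins, microtubule and actin motors, actins and their regulators, the small GTPases Rhoa and Rhob, the membrane linkers of the MARCKS and Epb41 families, and the 14-3-3 proteins. They were chosen by the start of the gene symbol (Tuba, Tubb, Tubg, Actb, Actg, Actn, Actr, Arpc, Myh, Myl, Kif, Dync, Dctn, Capz, Tpm, Cfl, Stmn, Marcks, Epb41 or Ywha, besides Map1a, Map1b, Map1s, Rhoa, Rhob and Rhoc) and kept where each brain region had 2 or more arrays with a value. The symbols caught 128 probes of 85 genes, and 115 probes of 76 genes had enough values, of 15245 probes and 7117 named genes in the series. Of these, 112 probes of 74 genes entered the test, and 3 probes (for Kif23, Kifc3 and a second Marcks probe) were too sparse for it. No member came from Map1a, Map1b, Map1s or Rhoc.

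The study compared, on mouse cDNA arrays with 2 colours, RNA from brains of null mutant mice with wild-type RNA that was pooled per region. The groups were null cortex with 4 replicates, and null hippocampus, null cerebellum and null brain stem-diencephalon with 3 replicates each, every one set against the pooled wild-type RNA of its region. The labels state that the RNA was amplified, and they give no strain, allele, age or sex of the mice and no number of wild-type mice in a pool. Nothing in the labels says that replicates came from different mice, so the p-values rest on a spread between samples that may be technical. Values are log2 ratios of null over wild type, so that a value below 0 is lower in null mutants. The labels do not say which channel is on top of the deposited ratios, so this direction is likely only, and with the opposite order every sign below turns. Ratios hold no expression level, so levels of different genes are not compared, and fewer cells of a type and less RNA per cell cannot be told apart.

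Microtubules are polymers of alpha- and beta-tubulin that give axons and dendrites their tracks. Kinesins carry cargo mostly towards the growing plus end, dynein with its cofactor dynactin carries cargo towards the minus end, and stathmins bind free tubulin. Actin filaments are nucleated by the Arp2/3 complex, capped, severed by cofilin, cross-linked by alpha-actinin, wrapped by tropomyosin and pulled by myosin, and small GTPases such as Rhoa govern their assembly. The 14-3-3 proteins are abundant in brain and bind phosphorylated partners in many signalling pathways.

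An array held values for 6793 to 13963 probes, of which 69 to 115 were members. The number of arrays limits the precision, and the median SE of a member's estimate was 0.14 within a region and 0.084 for the mean of the 4 regions. One swapped array was deposited nearly unchanged under both cerebellum and brain stem-diencephalon, and it was left out of both. The arrays numbered 1 stood apart from the others. Eif2s3y, a gene of the Y chromosome, read -1.36 to -0.44 on the 6 number 1 arrays used and 0.93 to 1.64 on the 11 others, and the part this difference plays in the results was not tested. Results are therefore also given without the 4 number 1 replicates. The repeated array is numbered 1 under cerebellum and 2 under brain stem-diencephalon. It read 1.71 for Eif2s3y under both labels, and its region was not tested. Of 64 marker genes of brain cell types, 18 were tested, none of them from the list of 9 general neuronal markers.

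Across the 4 regions, more member probes fell than rose in null mutants. The lowest estimates came from probes of Actb (beta-actin), Ywhag (14-3-3 gamma), Tubb3 (the neuronal beta-tubulin), Marcksl1 and Rhoa. For the mean of the 4 regions, 24 of 112 probes fell (21.4%; 15 genes) and 10 rose (8.93%; 9 genes) at an adjusted p under 0.05 in limma's moderated test. Over all 12175 probes, 6.6% were called lower and 6.97% higher in that comparison. The members' share of lower calls was thus above that of all probes, while their share of higher calls was near it. The median of all members was -0.034, beside 0.0074 for all probes, and 69 of 112 members (61.6%) lay below 0, beside 48.2% of all probes. Without the number 1 replicates the members' median was -0.0044 over 110 probes. Of the members, 9 had 1 sign in every replicate (7 below 0 and 2 above), beside 5.01% of all probes. In cortex, 11 probes of 8 genes fell (9.82%) and 0 rose, beside 1.45% lower and 1.07% higher among all probes.

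In the other regions 0 members passed the threshold in limma's test, and the background was also low. It was 0.329% lower and 0.0821% higher in hippocampus, 0.296% lower and 0.0986% higher in cerebellum, and 0.271% lower and 0.0246% higher in brain stem-diencephalon. At an unadjusted p under 0.05 there were 33 member probes for hippocampus (24 of them lower), or 29.5% beside 13.7% of all probes. Cerebellum had 19 (14 lower; 17.0% beside 14.6%) and brain stem-diencephalon 18 (9 lower; 16.1% beside 12.02%), shares near their background. Without the number 1 replicates, 17 members were lower and 5 higher in hippocampus, 12 lower and 3 higher in cerebellum, and 5 lower and 1 higher in brain stem-diencephalon. Among all probes 2.15% were then lower and 1.82% higher in hippocampus, 3.02% and 2.73% in cerebellum, and 0.713% and 0.373% in brain stem-diencephalon. The cerebellar share of higher members, 2.73%, equalled the background. In cortex 31 members were then lower and 15 higher, beside 10.5% and 12.5% of all probes, and for the mean of the regions 32 were lower and 21 higher, beside 10.9% and 13.5%.

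The cortex calls numbered 0 when arrays were scaled to one spread and 0 with trended, robust moderation of the variances. With the repeated array kept, cerebellum had 6 calls. With same-numbered replicates of different regions fitted as a block, 23 of the 34 probes called for the mean kept their call. Single replicates also decided many calls. Without the unnumbered cortex array the members called in cortex numbered 0 and those called for the mean 4, all 4 among the 34. Without cortex replicate 2 or 3 the cortex count was 0 or 1, without cerebellum replicate 2 or 3 it was 2 or 5, without brain stem-diencephalon replicate 2 or 3 it was 6 or 2, and without hippocampus replicate 2 it was 6. Leaving out cortex replicate 1 gave 37 and leaving out hippocampus replicate 1 gave 21. For the mean, 4 were called without cerebellum replicate 2, 14 without hippocampus replicate 2 and 21 without cerebellum replicate 3. The sign of the 34 estimates was the same in each of the 13 fits that left out a replicate. Both Marcksl1 probes and Rhoa probe 14505 were called for the mean in all 13.

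**Figure D1:**
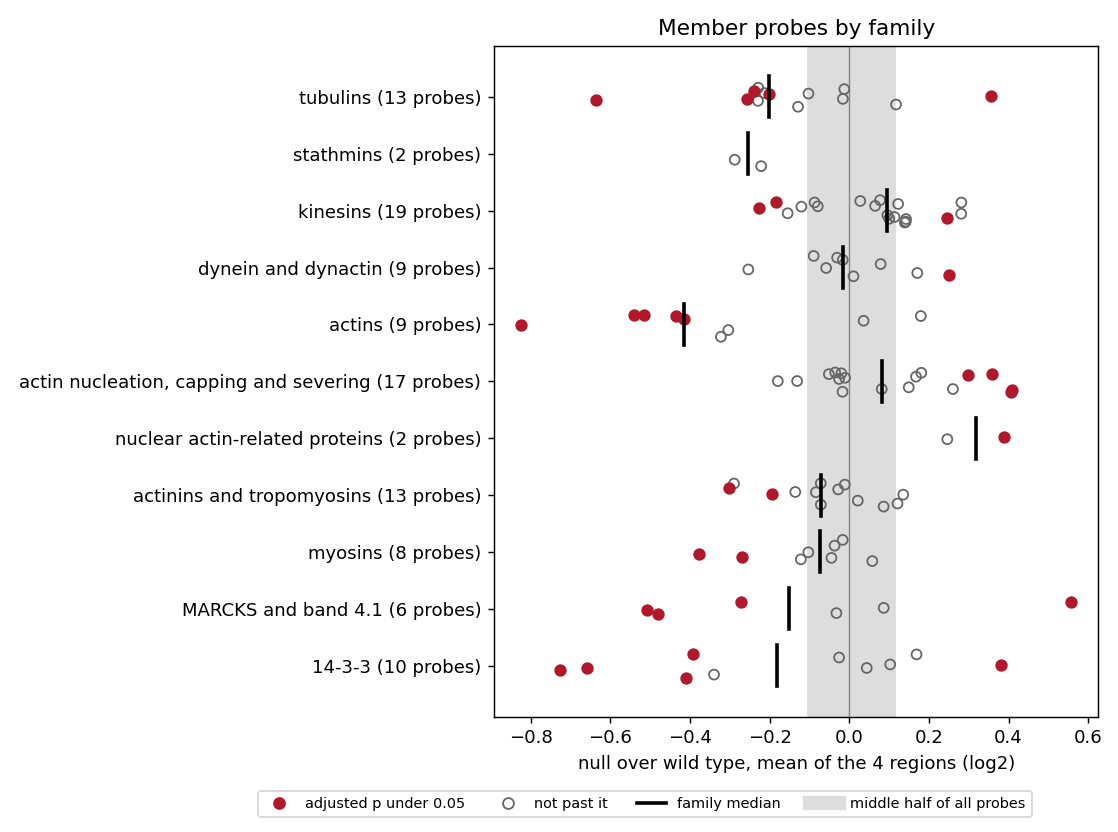
Each point is a tested member probe, at its log2 ratio of null over wild type averaged over the 4 regions, in the row of its family. Filled points passed an adjusted p of 0.05, black bars are family medians and the grey band is the interquartile range of all 12175 probes. Actins and tubulins lie mostly left of 0, and kinesins mostly right of it; Rhoa and Rhob are not drawn.

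**Figure D2:**
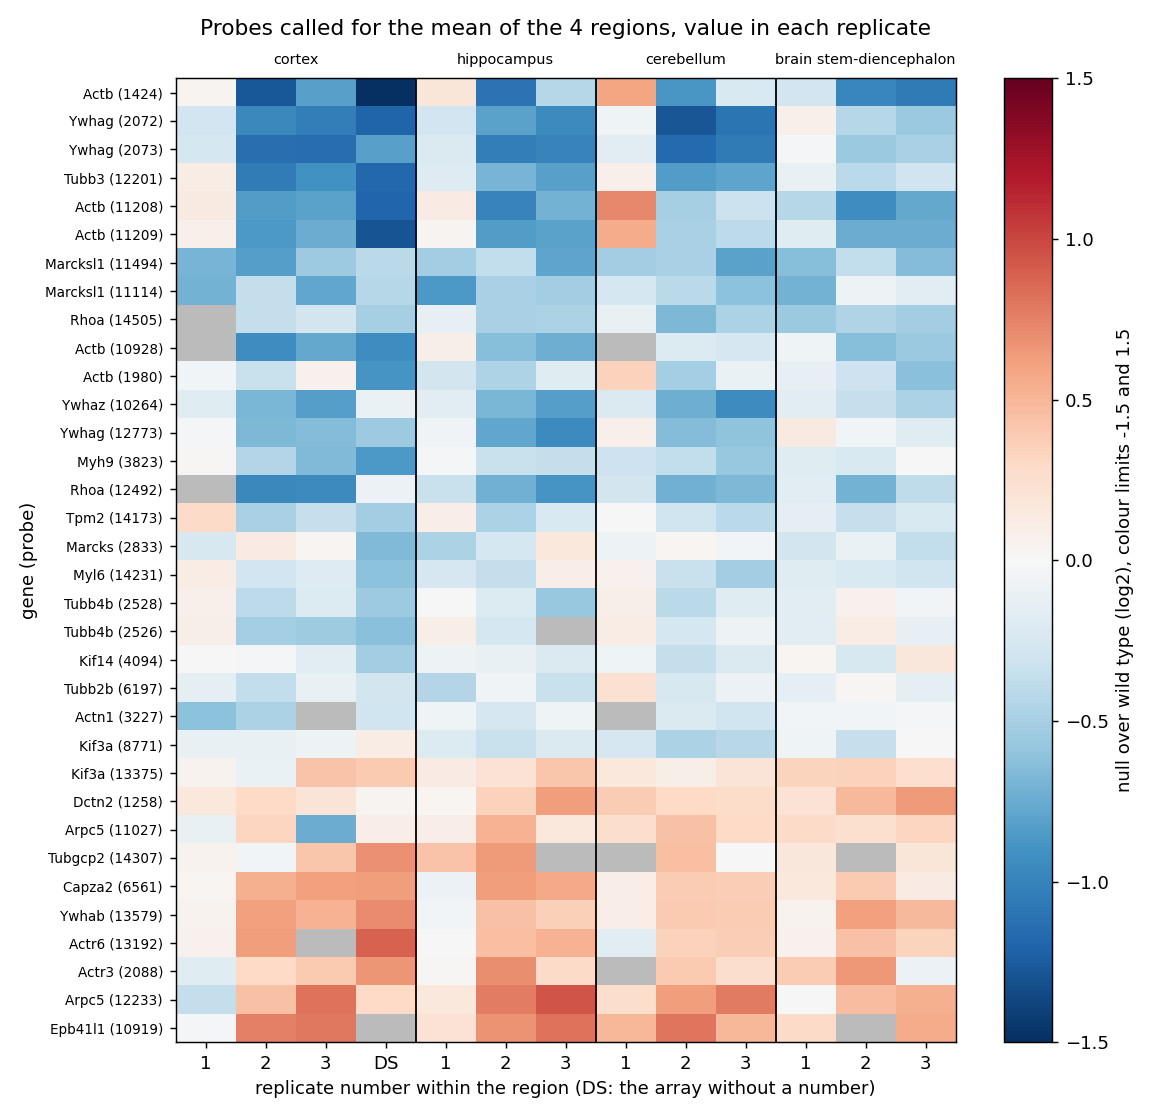
The 34 probes called for the mean of the 4 regions are shown in each of the 13 replicates, as log2 ratios of null over wild type from blue (lower) to red (higher), with missing values in grey. The colour scale ends short of Actb probe 1424 in the unnumbered cortex array, which read -1.86. The columns of replicate 1 are paler than their neighbours, or red, for Actb, Ywhag and Tubb3, while for Marcksl1 they are blue.

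The promoter windows of 3 genes that fell and of Epb41l1, which rose, are printed to show what lies at their starts. They come from RefSeq on build GRCm38.p6 and run from 250 bases before to 50 bases after the gene's start, in the direction of the gene. Capitals mark GGGCGG on either strand, the core of the GC box that binds Sp1 factors.
Ywhag, chr5:135934592-135934891, minus strand: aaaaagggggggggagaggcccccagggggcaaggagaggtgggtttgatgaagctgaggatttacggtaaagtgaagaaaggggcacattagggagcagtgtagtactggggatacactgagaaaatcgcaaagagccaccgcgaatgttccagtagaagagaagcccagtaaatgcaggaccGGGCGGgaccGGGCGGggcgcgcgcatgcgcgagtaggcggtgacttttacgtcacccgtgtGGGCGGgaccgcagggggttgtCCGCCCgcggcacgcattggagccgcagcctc
Tubb3, chr8:123411303-123411602, plus strand: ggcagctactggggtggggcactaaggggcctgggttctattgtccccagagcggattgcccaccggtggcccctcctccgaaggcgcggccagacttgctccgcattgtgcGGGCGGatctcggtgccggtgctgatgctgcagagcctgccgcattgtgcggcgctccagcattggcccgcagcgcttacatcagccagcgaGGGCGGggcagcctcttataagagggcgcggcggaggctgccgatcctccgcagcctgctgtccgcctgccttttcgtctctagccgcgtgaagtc
Marcksl1, chr4:129513331-129513630, plus strand: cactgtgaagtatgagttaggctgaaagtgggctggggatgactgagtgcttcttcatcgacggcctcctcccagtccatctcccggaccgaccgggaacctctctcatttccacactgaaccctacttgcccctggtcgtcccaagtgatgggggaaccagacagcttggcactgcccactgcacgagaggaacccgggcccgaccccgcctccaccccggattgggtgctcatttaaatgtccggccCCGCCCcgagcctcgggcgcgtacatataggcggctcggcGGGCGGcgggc
Epb41l1, chr2:156420659-156420958, plus strand: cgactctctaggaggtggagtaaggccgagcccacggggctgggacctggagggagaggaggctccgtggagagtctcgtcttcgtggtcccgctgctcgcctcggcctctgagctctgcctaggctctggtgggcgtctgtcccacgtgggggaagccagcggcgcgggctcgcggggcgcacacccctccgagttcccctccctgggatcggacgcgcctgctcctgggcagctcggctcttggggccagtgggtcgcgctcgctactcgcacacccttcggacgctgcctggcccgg
The Ywhag window held 4 matches, those of Tubb3 and Marcksl1 held 2 each, and that of Epb41l1 held 0. Windows were matched for 57 of the 76 member genes, and none was matched for Actb, Marcks, Ywhaz, Ywhab or Stmn1. GGGCGG was found in 40 of the 57 member windows (70.2%) and in 35.9% of the windows of all 27025 genes. These 27025 genes are not limited to those on the arrays, so the 2 shares do not set the members against the genes tested. For a gene with several windows, as 9 members had, the first listed was used. Among the genes called for the mean, 8 of the 11 lower genes with a window and 4 of the 7 higher genes with a window held it, as did 29 of the 40 windows of members that were not called. Kif3a, with a probe called each way, is counted on both sides. The serum response element CArG box (CC, then A or T at 6 positions, then GG) stood in 3 of 57 member windows, those of Actg1, Arpc4 and Myl9, and in 1.57% of all windows. TATAAA was found in 6 of 57 and in 14.2%, CACGTG in 6 of 57 and in 7.24%, and TGACGTCA in 2 of 57 and in 1.88%. Both strands were searched, and a match describes letters in the window, not a bound site.

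Among the tubulins, Tubb3 fell most and 2 other beta-tubulins fell slightly, while the alpha-tubulin did not pass the test. Tubb3, probe 12201, read 0.12, -1.05, -0.91 and -1.18 in the null cortex replicates numbered 1, 2, 3 and without a number. It read -0.19, -0.70 and -0.81 in null hippocampus, 0.077, -0.84 and -0.79 in null cerebellum and -0.12, -0.40 and -0.29 in null brain stem-diencephalon, in the order of replicates 1, 2 and 3. All values of replicates other than number 1 were below 0, and the highest values of cortex, hippocampus, cerebellum and brain stem-diencephalon were those of replicate 1. The fit, which also holds a term for the dye orientation and so need not equal the plain average, gave -0.63 ± 0.13 for the mean of the regions (SE; 1.55-fold lower; adjusted p = 0.00967) and -0.81 ± 0.19 in cortex (adjusted p = 0.0426). Without the number 1 replicates the mean was -0.78.

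Tubb4b, another beta-tubulin, was measured by 3 probes with means of -0.24, -0.21 and -0.26, and probes 2526 and 2528 passed at adjusted p-values of 0.0455 and 0.0408, calls that were lost with array scaling. Tubb2b, the neuronal beta-tubulin in which human mutations cause cortical malformation, averaged -0.20 ± 0.063 (adjusted p = 0.0483), a call lost in 5 of 10 other settings, among them array scaling, uncentred values and no number 1 replicates. Tubb6 averaged -0.23 ± 0.076 and the 3 Tubb5 probes -0.23, -0.10 and -0.013, none of them called with all replicates. Without the number 1 replicates Tubb6, Tubb5 probe 11087 and Tubb4b probe 2527 were called lower for the mean, at -0.30, -0.33 and -0.25. The pseudogene symbol Tubb2a-ps2 averaged -0.13 ± 0.11 and the alpha-tubulin Tuba1b -0.016 ± 0.081, without a call. Coding sequences of tubulins are alike, so a cDNA probe can bind RNA of several of them, and the size of this was not tested. The prefix also caught 2 proteins of the gamma-tubulin ring complex, which nucleates microtubules. Tubgcp2 rose, at 0.35 ± 0.083 (adjusted p = 0.0217; above 0 in 8 of 10 replicates; 0.55 without those numbered 1), and Tubgcp5 averaged 0.12 ± 0.053 without a call. Of the 13 tubulin probes, 11 lay below 0 and 4 fell, with a family median of -0.20 that was -0.21 without the number 1 replicates.

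The stathmins bind tubulin dimers and promote the shrinking of microtubules, and neither of the 2 members passed for the mean with all replicates. Stmn1 read 0.10, -0.56, -0.89 and -0.93 in null cortex and -0.12, -0.63 and -0.66 in null hippocampus, but 0.68, 0.32 and 0.47 in null cerebellum and 0.046, -0.27 and -0.17 in null brain stem-diencephalon. The 3 cerebellar values were above 0, and all hippocampal ones were below 0. Its cortex estimate of -0.60 ± 0.15 missed the threshold narrowly (adjusted p = 0.05 after rounding). The cerebellum estimate of 0.42 ± 0.19 had an adjusted p of 0.321. Stmn3 averaged -0.29 ± 0.11 (adjusted p = 0.0938) and lay below 0 in 12 of 13 replicates. Both passed for the mean without the number 1 replicates, Stmn1 at -0.33 (adjusted p = 0.00831) and Stmn3 at -0.46 (adjusted p = 0.00342), and Stmn1 also passed in cortex, at -0.79 (adjusted p = 0.000525).

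Kinesins as a group leaned slightly upwards, with 13 of 19 probes above 0, a median of 0.10 and 1 call higher against 2 lower. Kif3a, a motor subunit of kinesin-2 that carries cargo into cilia, gave opposite calls on its 2 probes. Probe 13375 averaged 0.25 ± 0.068 (adjusted p = 0.0311; above 0 in 12 of 13 replicates) and probe 8771 averaged -0.18 ± 0.056 (adjusted p = 0.0461; below 0 in 12 of 13). Probe 8771 lost its call without the number 1 replicates, and both probes lost theirs with the replicate number as a block. Averaged over both probes Kif3a stood at 0.026, so no direction holds for the gene. Its partners Kif3b and Kifap3 averaged 0.14 and 0.10, without a call. The 3 probes of Kif5b, the heavy chain of conventional kinesin, averaged 0.28, 0.14 and 0.28, and the lowest of their adjusted p-values was 0.0684. Kif14, a mitotic kinesin, fell by 0.23 on the log2 scale (adjusted p = 0.0469), a call lost in 4 of 10 other settings, among them no dye term, array scaling and uncentred values. The motors Kif1b, Kif2a, Kif2c, Kif9, Kif16b, Kif22, Kif28 and Kifc2 were not called with all replicates. In the fit without the number 1 replicates Kifc2 was called lower for the mean, at -0.44. Kif2c, Kif3b and Kif5b probe 10885 were called higher there, at 0.33, 0.23 and 0.42. Without the number 1 replicates the family median was 0.19, over 17 probes.

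Dynein and dynactin had a median of -0.016 over 9 probes, which turned to 0.045 without the number 1 replicates, and 1 call. Dctn2, the dynamitin subunit that holds dynactin's shoulder together, rose. It read 0.16, 0.29, 0.19 and 0.047 in null cortex, 0.033, 0.35 and 0.62 in null hippocampus, 0.38, 0.29 and 0.28 in null cerebellum and 0.22, 0.48 and 0.64 in null brain stem-diencephalon. All 13 values were above 0, and the estimate was 0.25 ± 0.062 (adjusted p = 0.021). The call was lost with the replicate number as a block. Actr1a, the actin-like protein that forms dynactin's filament, averaged 0.17 ± 0.074 (adjusted p = 0.131), and passed at 0.27 without the number 1 replicates (adjusted p = 0.0194). The dynein heavy chain Dync1h1 averaged -0.089, the intermediate chain Dync1i2 0.011 and -0.058 on 2 probes, and the light intermediate chains Dync1li1 and Dync1li2 -0.030 and -0.25. The dynactin subunits Dctn5 and Dctn6 averaged 0.079 and -0.016. None of these subunits was called with all replicates. Without the number 1 replicates Dync1li2 was called lower, at -0.54 for the mean, -0.55 in cortex and -0.62 in hippocampus.

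Beta-actin fell on most of its probes, by amounts that differed between them, and the single gamma-actin probe was not called with all replicates. Of 8 Actb probes, 5 fell for the mean of the regions, with estimates of -0.82, -0.54, -0.52, -0.44 and -0.42 and adjusted p-values between 0.0102 and 0.0254. Probe 1424 had the lowest estimate. It read 0.044, -1.27, -0.81 and -1.86 in null cortex, 0.19, -1.10 and -0.43 in null hippocampus, 0.59, -0.87 and -0.23 in null cerebellum and -0.29, -0.98 and -1.06 in null brain stem-diencephalon. Replicate 1 was the highest in every region and above 0 in 3 of the 4, while all other replicates were below 0. In cortex the estimate was -1.09 ± 0.25 (2.13-fold lower; adjusted p = 0.0426), and probe 10928 fell there by 0.87 on the log2 scale (adjusted p = 0.0195). The mean of probe 1424 without the number 1 replicates was -1.20.

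Probes 15092 and 1877 averaged -0.30 and -0.32 and missed the threshold (adjusted p = 0.102 and 0.0699), and both passed without the number 1 replicates, at -0.54 and -0.53. Probe 1973 averaged 0.036 ± 0.074 and lay below 0 in 4 of 12 replicates. The lowest correlation between 2 Actb probes over the replicates was -0.44 and the highest 0.97. These 13 points share arrays, so the correlations describe the probes only. Actg1, the cytoplasmic gamma-actin, averaged 0.18 ± 0.058 (adjusted p = 0.0569) on its single probe. It was called higher for the mean without the number 1 replicates, at 0.20. The actin family's median was -0.42, and -0.59 without the number 1 replicates. It ranged over -0.13 to 0.54 in the 4 number 1 replicates and over -0.89 to -0.21 in the 9 others.

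With all replicates, some proteins that nucleate or cap actin filaments rose, and none was called lower. Of 17 probes, 4 rose, and the family's median was 0.082. Actr3, the Arp3 subunit of the Arp2/3 complex, read -0.19, 0.30, 0.39 and 0.66 in null cortex, 0.012, 0.70 and 0.29 in null hippocampus, 0.39 and 0.27 in null cerebellum and 0.38, 0.65 and -0.086 in null brain stem-diencephalon, with no value for cerebellum replicate 1. Its mean of 0.41 ± 0.10 passed (adjusted p = 0.0196), with 10 of 12 values above 0, a call lost with the replicate number as a block. Arpc5, the smallest Arp2/3 subunit, rose on both probes, by 0.30 and 0.41 (adjusted p = 0.0302 and 0.0373). The first of them read -0.74 in cortex replicate 3, where the second read 0.82. The first also lost its call without the dye term and with the replicate number as a block. Capza2, an alpha subunit of capping protein, rose on probe 6561 at 0.36 ± 0.088 (adjusted p = 0.0198; above 0 in 12 of 13), and its probe 1062 averaged 0.26 ± 0.10 without a call.

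The remaining subunits were not called with all replicates. Arpc2 averaged 0.15 and 0.18 on 2 probes, Arpc4 -0.18 and -0.13, Arpc1a -0.011 and -0.035, Arpc1b -0.026 and Arpc5l -0.020. Capza1 averaged 0.17 and -0.051 on its 2 probes, Capzb, the beta subunit of capping protein, 0.082, and the severing protein cofilin, Cfl1, -0.017 ± 0.11. Without the number 1 replicates Arpc4 probe 11347 was called lower for the mean, at -0.30, and in cortex, at -0.38. Called higher for the mean were both Arpc2 probes, at 0.29 and 0.31, Capza1 probe 13115, at 0.20, and Capza2 probe 1062, at 0.37. The prefix Actr also caught 2 nuclear proteins, Actr6 and Actr8, which belong to chromatin remodelling complexes and not to the cytoskeleton. Actr6 rose, at 0.39 ± 0.094 (adjusted p = 0.0203; above 0 in 11 of 12 replicates), and Actr8 averaged 0.25 ± 0.10 (adjusted p = 0.1), with 0.40 (adjusted p = 0.00884) when the number 1 replicates were left out.

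The proteins that cross-link or wrap actin gave 2 lower calls among 13 probes, with a median of -0.071 that turned to 0.0070 without the number 1 replicates. Actn1, alpha-actinin-1, fell in cortex on probe 3227, where its 3 values were -0.61, -0.48 and -0.30. The cortex estimate was -0.47 ± 0.088 (adjusted p = 0.0316) and the mean of the regions -0.19 ± 0.055 (adjusted p = 0.0391). The call for the mean was lost in 4 of 10 other settings, among them array scaling and no number 1 replicates (adjusted p = 0.0636). Its other probes averaged -0.29 and -0.028 and were not called with all replicates. Without those numbered 1, probe 11215 was called lower, at -0.47 for the mean, -0.71 in cortex and -0.66 in hippocampus. Actn2, Actn3 and Actn4 averaged 0.021, 0.12 and -0.072. Tpm2, the beta-tropomyosin, fell on probe 14173, at -0.30 ± 0.087 (adjusted p = 0.0356; lost with array scaling and with probes averaged per gene), while its probe 10611 averaged -0.14 ± 0.13. The Tpm1 probes averaged 0.14 and -0.071 and the Tpm3 probes -0.084, -0.011 and 0.086, with signs that differed within each gene and no call.

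Of the myosins, the heavy chain Myh9 and the essential light chain Myl6 fell. Myh9, the non-muscle myosin IIA heavy chain, read 0.018, -0.44, -0.67 and -0.87 in null cortex, -0.012, -0.33 and -0.35 in null hippocampus, -0.31, -0.37 and -0.56 in null cerebellum and -0.18, -0.23 and -0.0091 in null brain stem-diencephalon. It lay below 0 in 12 of 13 replicates and averaged -0.38 ± 0.081 (1.3-fold lower; adjusted p = 0.0114). Its cortex estimate was -0.52 ± 0.12 (adjusted p = 0.041), and its mean without the number 1 replicates -0.41. Myl6, which binds the heavy chains of non-muscle myosin, averaged -0.27 ± 0.065 (adjusted p = 0.0181; below 0 in 10 of 13). Myh10, the IIB heavy chain that is the main one in neurons, averaged 0.058 ± 0.066 (adjusted p = 0.592). The regulatory light chains Myl12a, Myl12b and Myl9 and the kinase Mylk averaged between -0.12 and -0.016 and were not called.

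Rhoa, the GTPase that drives stress fibres and myosin contraction, fell, and the means of its 3 probes were all below 0. Probe 14505 read -0.36, -0.28 and -0.49 in the 3 null cortex replicates that held it (2, 3 and without a number). It read -0.12, -0.49 and -0.47 in null hippocampus, -0.11, -0.68 and -0.47 in null cerebellum and -0.56, -0.46 and -0.52 in null brain stem-diencephalon. All 12 values were below 0, and the mean was -0.45 ± 0.062 (1.36-fold lower; adjusted p = 0.00147). Probe 12492 was also below 0 in 12 of 12 values, at -0.33 ± 0.078 (adjusted p = 0.0181), and fell in cortex by 0.54 on the log2 scale (adjusted p = 0.0381). The means of these 2 probes without the number 1 replicates were -0.52 and -0.40. Probe 12557 averaged -0.20 ± 0.063 (adjusted p = 0.0541), and was called at -0.26 without the number 1 replicates. Rhob, an endosomal and immediate early small GTPase, averaged -0.37 ± 0.12 (adjusted p = 0.0621), with 10 of 11 values below 0.

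Marcksl1 fell and Epb41l1 rose for the mean of the regions. Marcksl1 codes for a small relative of MARCKS that binds actin, calmodulin and acidic lipids at the membrane. Its probe 11494 read -0.70, -0.83, -0.55 and -0.41 in null cortex, -0.53, -0.37 and -0.79 in null hippocampus, -0.52, -0.48 and -0.80 in null cerebellum and -0.63, -0.37 and -0.65 in null brain stem-diencephalon. On this probe the number 1 replicates lay among the others, while on probe 11114 replicate 1 was the lowest in hippocampus and brain stem-diencephalon. The brain stem-diencephalon estimate of probe 11114 was -0.31 with all replicates and 0.041 without those numbered 1. The mean of probe 11494 was -0.51 ± 0.065 (1.42-fold lower; adjusted p = 0.000576), and probe 11114 gave -0.48 ± 0.082 (adjusted p = 0.00424), each with 13 of 13 values below 0. In cortex both passed, at -0.55 and -0.57 (adjusted p = 0.0182 and 0.0337). In hippocampus the adjusted p-values were 0.0514 and 0.0698. Without the number 1 replicates the means were -0.46 and -0.33.

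Epb41l1, a neuronal relative of the erythrocyte protein Epb41 that links membrane proteins to spectrin and actin, read -0.017, 0.76 and 0.79 in null cortex replicates 1, 2 and 3, and 0.21, 0.68 and 0.82 in null hippocampus. It read 0.50, 0.80 and 0.49 in null cerebellum and 0.28 and 0.56 in replicates 1 and 3 of null brain stem-diencephalon. The values were above 0 in 10 of 11 replicates, and the mean of 0.56 ± 0.10 (1.47-fold higher; adjusted p = 0.00843) was the highest among members and 0.69 without the number 1 replicates. Its relatives Epb41l2 and Epb41l5 averaged 0.086 ± 0.080 and -0.032 ± 0.10, without a call. Marcks averaged -0.27 ± 0.084 on probe 2833 (adjusted p = 0.0464; below 0 in 9 of 13), a call lost without the number 1 replicates and in 3 other settings of 10.

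The 14-3-3 genes split, with Ywhag and Ywhaz lower and Ywhab higher. Ywhag, 14-3-3 gamma, fell on 3 of 3 probes. Probe 2072 read -0.29, -0.97, -1.03 and -1.21 in null cortex, -0.29, -0.80 and -0.95 in null hippocampus, -0.064, -1.28 and -1.10 in null cerebellum and 0.073, -0.43 and -0.55 in null brain stem-diencephalon. Replicate 1 was the highest in every region. Its mean was -0.73 ± 0.13 (1.65-fold lower; adjusted p = 0.00653). Probes 2073 and 12773 averaged -0.66 ± 0.14 and -0.39 ± 0.10 (adjusted p = 0.0113 and 0.0238). In cortex probes 2072 and 2073 passed, at -0.90 and -0.83 (adjusted p = 0.0357 and 0.0426). Correlations between these probes over the 13 replicates, which share arrays, were 0.88 to 0.93. Without the number 1 replicates the means of the 3 probes were -0.94, -0.85 and -0.55.

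Ywhaz, 14-3-3 zeta, read -0.18, -0.68, -0.82 and -0.10 in null cortex, -0.15, -0.69 and -0.83 in null hippocampus, -0.21, -0.74 and -0.95 in null cerebellum and -0.15, -0.35 and -0.47 in null brain stem-diencephalon. All 13 values were below 0, and the mean was -0.41 ± 0.10 (1.33-fold lower; adjusted p = 0.0183). Ywhab, 14-3-3 beta, rose on probe 13579, which read 0.057, 0.62, 0.52 and 0.71 in null cortex, -0.036, 0.44 and 0.36 in null hippocampus, 0.10, 0.39 and 0.38 in null cerebellum and 0.057, 0.61 and 0.48 in null brain stem-diencephalon. Number 1 replicates were again nearest to 0, and the mean was 0.38 ± 0.086 (1.3-fold higher; adjusted p = 0.0139). Without those replicates the means were -0.49 for Ywhaz and 0.53 for Ywhab. The other Ywhab probe, 6176, averaged 0.17 ± 0.075 without a call, and was called at 0.30 without the number 1 replicates. Ywhae, 14-3-3 epsilon, averaged -0.34 ± 0.12 (adjusted p = 0.073). Ywhah averaged -0.026 and Ywhaq 0.044 and 0.10. The median over the 10 probes, -0.18 with all replicates and -0.11 without those numbered 1, mixes opposite directions.

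**Figure D3:**
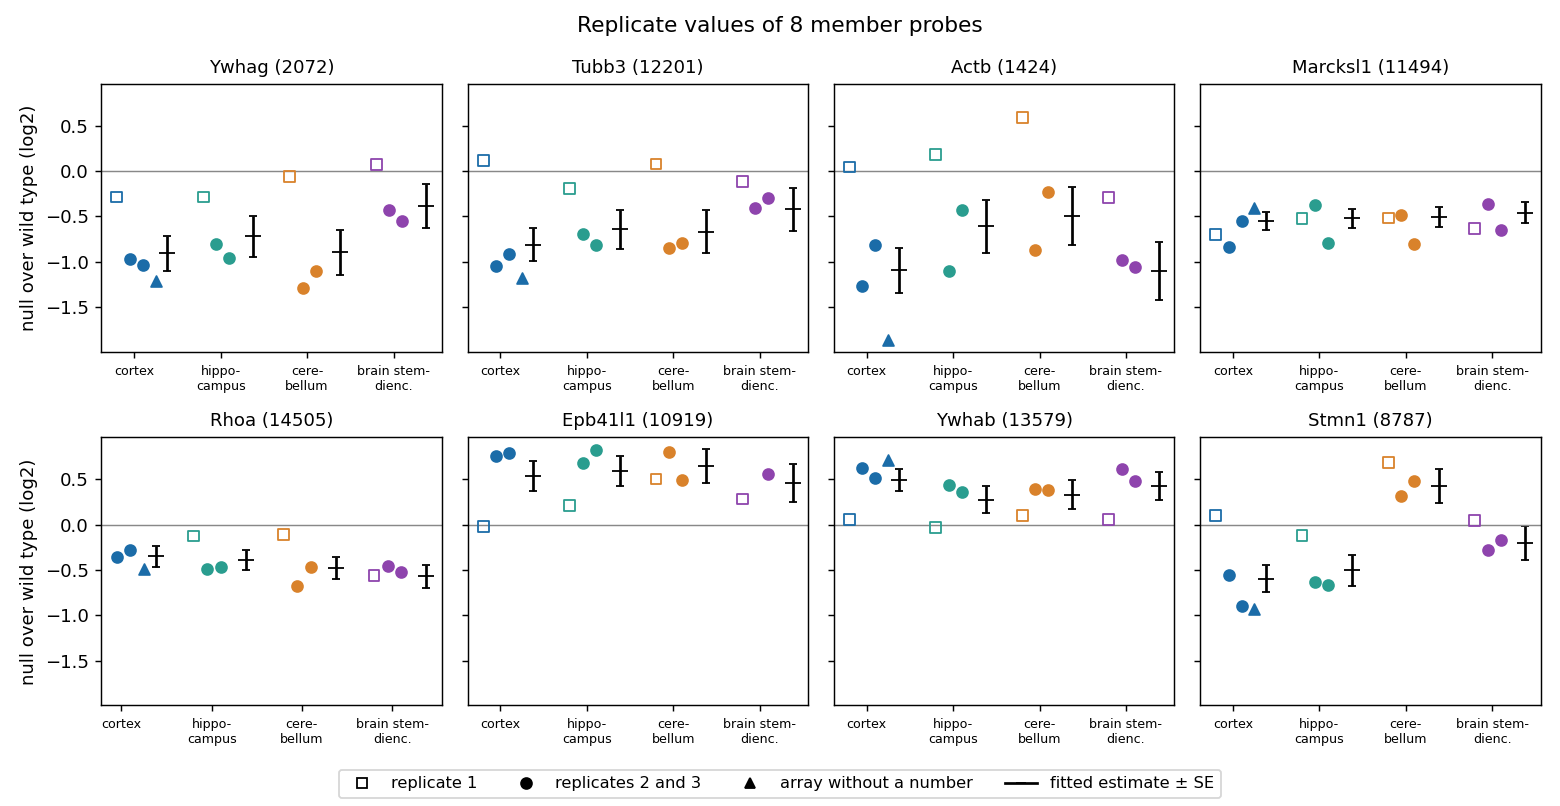
Each panel shows a probe's log2 ratio of null over wild type (y axis) in every replicate of the 4 regions (x axis), with open squares for replicate 1, circles for replicates 2 and 3 and a triangle for the cortex array without a number. Black bars are the fitted estimate of a region with its SE. For Ywhag, Tubb3 and Actb the squares lie above the other replicates, for this Marcksl1 probe they lie among them, and Stmn1 is above 0 in all 3 cerebellar replicates.

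Whether a member's ratio differed between regions was tested by an F test and by the 6 pairwise differences. No member passed either, and over all 12175 probes 1 passed each of them (0.00821%). At an unadjusted p under 0.05 there were 7 members in limma's F test (6.25%, beside 4.89% of all probes). Stmn1 had the smallest F-test p among members, 0.00301 (adjusted p = 0.848). Its cortex ratio minus its cerebellum ratio was -1.02 ± 0.23 (SE; adjusted p = 0.658). Over 23 fits, its adjusted p in the F test lay between 0.0525 and 0.9999, so the regional pattern seen for Stmn1 did not pass in any of them. Kif22, Actn1 and Rhob followed, with adjusted p-values of 0.956, 0.987 and 0.987. A difference between cortex and the other regions was thus not shown for any member.

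Of the 25 genes with several tested probes, 8 had means on both sides of 0, and the median range between probes of a gene was 0.14. Only for Actb did the probes differ by over 0.5. Apart from Actb and Kif3a, the genes with both signs were Capza1, Dync1i2, Kif16b, Kif22, Tpm1 and Tpm3. None of their probes was called for the mean with all replicates. Ywhag, Marcksl1 and Arpc5 were called on every probe. Correlations between probes over the replicates were 0.88 to 0.93 for Ywhag, but 0.23 for Marcksl1 and 0.044 for Arpc5. Spots of one gene on an array share the labelled RNA, so agreement between them does not add replicates.

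**Figure D4:**
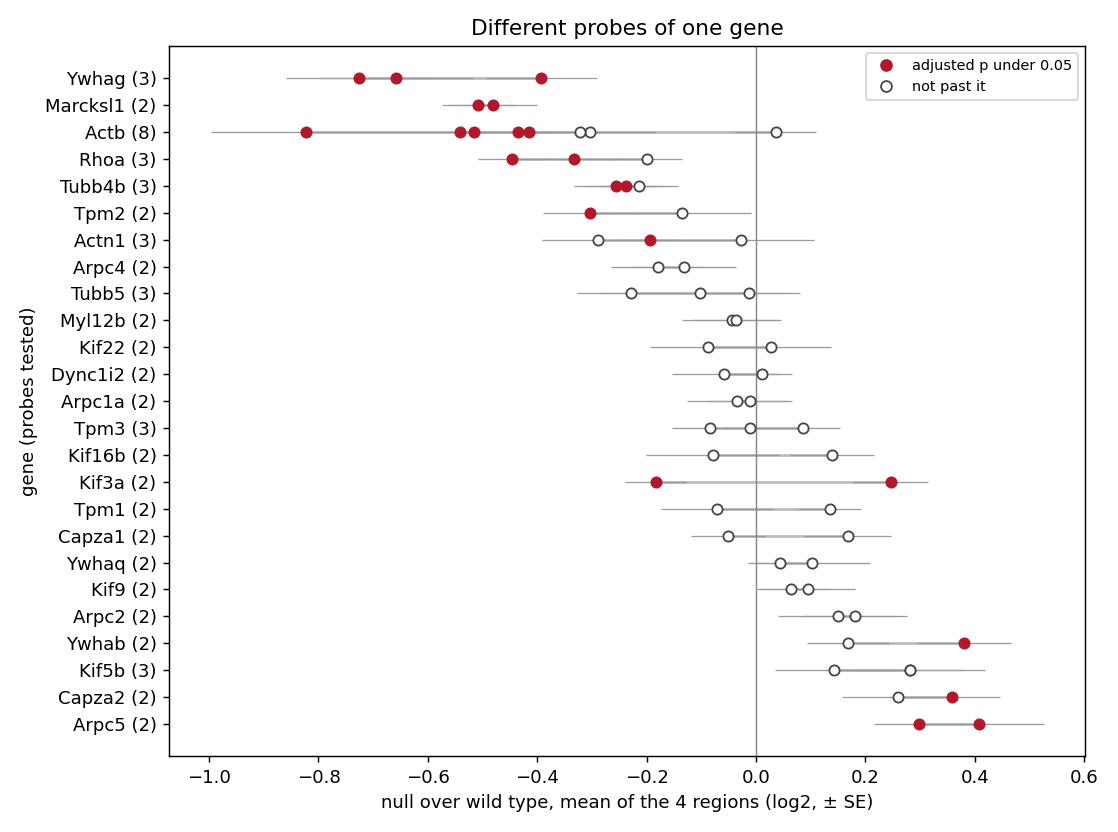
Each row is one of the 25 genes with several tested probes, and each point is a probe at its log2 ratio of null over wild type averaged over the 4 regions, with its SE. Filled points passed an adjusted p of 0.05. Actb spans from -0.82 to 0.036, Kif3a has a filled point on either side of 0, and Ywhag, Marcksl1 and Arpc5 have filled points only.

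The number 1 replicates lay apart from the others in some families and not in all. For actins (9 probes of 2 genes) and the nuclear actin-related pair (2 probes) their medians did not overlap those of the other replicates. How often sets of other probes separate in this way was not counted. For tubulins the family median was 0.016 to 0.087 in the 4 number 1 replicates and -0.42 to 0.021 in the 9 others, which touched. For the nuclear actin-related pair it was -0.063 to 0.093 and 0.32 to 0.73. For 14-3-3 the ranges overlapped, at -0.18 to 0.0041 and -0.36 to -0.040, as they did for the MARCKS and Epb41 families, at -0.43 to -0.17 and -0.42 to 0.16. Of the arrays used, those numbered 1 of cortex and cerebellum had null RNA in channel 1 only. Those of hippocampus and brain stem-diencephalon included a swapped array. The swapped array labelled number 1 of cerebellum was the repeated one that was left out.

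**Figure D5:**
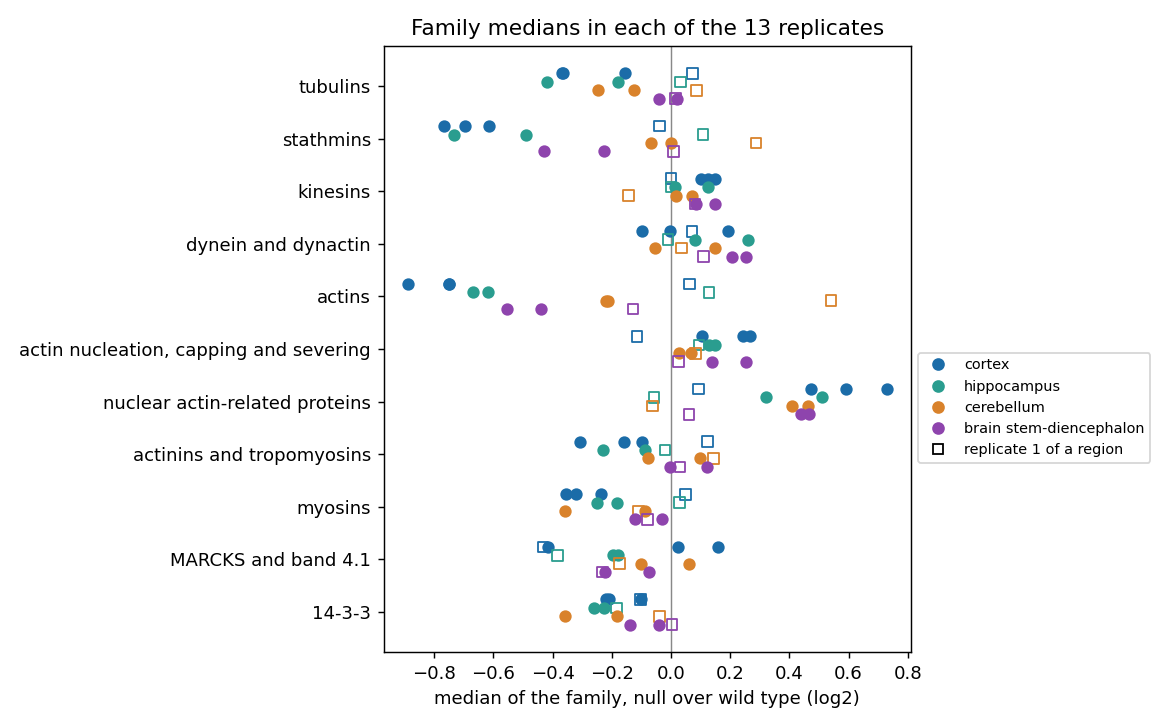
Each point is the median log2 ratio of null over wild type of a family's probes in a replicate, coloured by region, with open squares for the number 1 replicates. For actins the squares lie between -0.13 and 0.54 and the other replicates between -0.89 and -0.21, while for the MARCKS and Epb41 families both kinds overlap.

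Other cytoskeletal genes, a list of 135 outside these symbols of which 76 were tested on 112 probes, are given for comparison. For the mean of the regions 8 probes rose (7.14%) and 9 fell (8.04%), with a median of -0.019, and in cortex 1 rose and 2 fell. Of all probes, 6.97% were higher and 6.6% lower for the mean, and 1.07% and 1.45% in cortex. The counts of the list were thus near the background. The lowest was Septin11, a septin that forms filaments at the base of dendritic branches, at -0.63 ± 0.13 (adjusted p = 0.01). Tmsb10, a thymosin that sequesters actin monomers, averaged -0.49 ± 0.10 (adjusted p = 0.0119). Wasl, which activates Arp2/3, and the severing protein Gsn averaged -0.42 and -0.36 (adjusted p = 0.0036 and 0.00563). Both Cct2 probes and 1 of 2 Cct4 probes, of the chaperonin that folds actin and tubulin, rose by 0.25, 0.33 and 0.28, while the probes of Cct3, Cct5, Cct7 and Cct8 were not called. Dynll1, a dynein light chain, fell on probe 10864 by 0.30 on the log2 scale, while probe 13466 rose in cortex by 0.75.

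Among the 9 marker lists, 2 of the 25 tested probes rose and 2 fell for the mean of the regions, and none passed in cortex. Of all probes, 6.97% were higher and 6.6% lower for the mean, so these counts lay near the background. Hbb-b1, a haemoglobin gene of red cells, rose by 0.56 and Ccna2, a cyclin, by 0.21 on 1 of 3 probes, while Pecam1, of endothelium, fell by 0.44 and Igf2, of meninges and choroid plexus, by 0.34 on the log2 scale on 1 of 2 probes. The other Ccna2 probes averaged -0.014 and 0.17 and those of Top2a, from the same list of proliferating cells, -0.18 and 0.071, without a call. In hippocampus Pecam1 and Ppp1r1b, a forebrain neuronal marker, fell by 0.53 and 0.63 on the log2 scale. In cortex, where the member calls lay, medians were -0.13 over 4 astrocyte probes, -0.35 over 3 microglial probes and -0.48 over 3 probes of choroid plexus and meninges, and the single myelin probe read -0.30. Medians above 0 there were 0.14 over 5 probes of proliferating cells, 0.10 over the 2 probes of vessels and blood (Pecam1 -0.43 and Hbb-b1 0.63) and 0.074 over 6 probes of cerebellar neurons, and the forebrain neuron probe read 0.23. In cerebellum, where Stmn1 read above 0, the single myelin probe read 0.52 and the 3 microglial probes 0.30 to 0.52, none of them called. Medians there were also above 0 for astrocytes, at 0.089, and for vessels and blood, at 0.16 from 2 probes at -0.38 and 0.71. They were below 0 for choroid plexus and meninges (-0.35), proliferating cells (-0.043) and cerebellar neurons (-0.013), and the forebrain neuron probe read -0.17. The part of cell composition in the members' ratios was not tested.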

How the data were processed

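Each of 20 cDNA arrays set null mutant against pooled wild-type RNA of a brain region. The authors deposited a table of log ratios of the 2 channels per array, already centred near 0, per the file headers and values, read here as log2; no label states the log base, the background correction or the normalization. Ratios of arrays labelled as dye swaps were multiplied by -1. Before that, the correlation between swapped and unswapped arrays within regions was -0.40 at the median of 12 pairs, and 0.12 at that of the 6 pairs that held a number 1 array with null RNA in channel 1. Each array was centred on its median (0.00862 to 0.0609 as deposited). Symbols came from the platform annotation (9604 probes with 1 symbol, 213 with several, 5428 with none; 9496 matched a current gene by Entrez ID).

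Arrays sharing region and number were averaged, which gave 13 replicates. The unnumbered cortex array counted as its own replicate, though it may repeat a numbered extract. The array found under 2 regions (correlation 0.9952 over 6748 probes; next highest of 190 pairs 0.743) was left out. Per probe, least squares with 4 region terms and the mean dye orientation, with variances moderated by limma (version 3.58.1, under R 4.3.3; 8 residual and 5.92 prior degrees of freedom for a complete probe), tested each region, their mean and their differences, with Benjamini-Hochberg adjustment over 12175 probes with at least 2 replicates in every region (threshold 0.05). For the 6 pairwise differences between regions, the adjustment ran over all probes and all pairs together. P-values are limma's unless stated. Wild-type RNA entered only as a pool, so the tests do not include variation among wild-type samples. The fit was tested on simulated ratios with known changes. Same-numbered replicates of different regions had residual correlations of -0.030 to 0.73 (18 pairs, 14 over 0.1). Their median was 0.38, beside -0.18 for pairs with other numbers. The labels do not say what a number marks, and numbers were not taken as pairs. The test of the mean thus treats the 13 replicates as independent, and its p-values are too small if same-numbered replicates share a source. Tables and figures used Python 3.11.15 with pandas and matplotlib.

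The members, lists, tests and the named genes (per family the 2 probes with the smallest p for the mean, up to 8 called probes per region, the 4 smallest F-test p-values, genes whose probes differ in sign or by over 0.5, and Tubb3, Ywhag, Marcksl1 and Epb41l1) were chosen with earlier results of these data known. Other members, among them Arpc5, Kif14, Tubb2b, Tubb4b, Marcks, Ywhab and Ywhaz, were named after their values were seen. The gene mutated in the null mice and the summary of one family are not reported here. Alternatives were other filters, scalings, moderation, no dye term, replicate number as a block, the repeated array kept, gene averages, no number 1 replicates, and each replicate left out.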

Additional observations from a re-analysis of the deposited data

Results flagged for a closer look

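Among 43 groups of 4 cortex replicates, 5 held a value far from the other replicates of its group by Dixon's test, which chance gives in about 1 in 20 groups. In cortex replicate 1, Actb probe 15092 read 0.11, Capza2 probe 6561 read 0.030 and Tubb4b probe 2526 read 0.085. Kif3a probe 8771 read 0.12 in the unnumbered cortex array, and Tpm1 probe 13671 read 0.42 in cortex replicate 3.

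For 5 pairs of regions, all replicates of one region lay above 0 and all of the other below it, and none of these differences passed limma's test. The share of all probes that split in this way was not counted, so the 5 are not shown to exceed it. Stmn1 differed by -0.93 between hippocampus and cerebellum (hippocampus minus cerebellum; adjusted p = 0.918). Kif22 probe 4052, of a mitotic kinesin, differed by 0.80 for cortex minus cerebellum (adjusted p = 0.918) and by 0.75 for cortex minus brain stem-diencephalon (adjusted p = 0.981). For Dync1i2, probe 9578 differed by 0.31 for cortex minus cerebellum and probe 13667 by -0.23 for cerebellum minus brain stem-diencephalon (adjusted p = 0.999 for both).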

How the results depend on the processing

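Counts are of member probes called, higher and lower together, each with the share of all probes called in the same fit in brackets. For cortex null over wild type, 11 were called (2.52%), against 5 with probes averaged per gene (2.51%), 0 with arrays scaled to one spread (0.172%), 0 with trended and robust moderation (0.0246%), 46 without the number 1 replicates (23.0%) and 0 to 37 when a replicate was left out. For hippocampus null over wild type, 0 were called (0.411%), against 1 with at least 3 arrays per region (0.481%), 1 with probes averaged per gene (0.517%), 2 without the dye term (0.566%), 22 without the number 1 replicates (3.97%) and 0 to 1 when a replicate was left out. For cerebellum null over wild type, 0 were called (0.394%), against 6 with the repeated array kept (2.26%), 3 without the dye term (1.49%), 15 without the number 1 replicates (5.75%) and 0 to 1 when a replicate was left out. For brain stem-diencephalon null over wild type, 0 were called (0.296%), against 1 without the dye term (0.566%) and 6 without the number 1 replicates (1.09%). For the mean of the 4 regions null over wild type, 34 were called (13.6%), against 21 genes with probes averaged per gene (13.3%), 55 without the dye term (24.9%), 53 without the number 1 replicates (24.4%) and 4 to 43 when a replicate was left out. Averaging probes tests fewer features, and the cause of the other shifts was not tested. No difference between regions was called for a member in any of these settings. With the replicate number as a block, 22 were called in cortex (6.56%), 4 in hippocampus (0.994%), 3 in cerebellum (1.22%), 2 in brain stem-diencephalon (0.402%) and 23 for the mean (7.92%). The calls for the mean not made with the block were those of Dctn2, Actr3, Arpc5 probe 11027, both Kif3a probes, Kif14, Tubb2b, Tubb4b probes 2526 and 2528, Actn1 probe 3227 and Marcks probe 2833. Same-numbered replicates of different regions had a median residual correlation of 0.38 and other pairs -0.18, and 9 of 12 numbered replicates correlated best with their own number, a hint from the data and not from the design. Of 1032 recomputed values of 45 named calls, 757 kept the call and 1 turned its sign, Kif3a probe 8771, at 0.026 after averaging with the gene's other probe. Of 276 recomputed family medians, 1 moved by more than the replicates' SD, that of kinesins, to 0.19 without the number 1 replicates. Signal over background is unknown, so weak spots could not be told from strong ones.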
